A study of Caenorhabditis elegans with 2 samples.

Results

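The genes described here are the protein-coding genes named rpl- followed by a number in the Ensembl annotation. The name is that of proteins of the large subunit of the cytosolic ribosome, and the product of each gene was not checked here. There are 47 such genes among 19973 protein-coding genes on the nuclear chromosomes. The rule takes them by name and uses no value from the peak lists. The measurement is chromatin immunoprecipitation followed by sequencing (ChIP-seq) of MADF-6, a protein whose MADF domain is a fold of the Myb kind that contacts DNA. Whole Caenorhabditis elegans young adults of strain RW12237 were used at 63 h, after synchronisation as starved first-stage larvae. In this strain a CRISPR insertion, allele st12237, adds TY1, EGFP and 3xFLAG tags to the endogenous madf-6 gene, and the tagged protein was recovered with an antibody against GFP. All animals carry the allele, there is 1 group with 2 biological replicates, and no untagged strain was analysed here. Whole animals mix all tissues, so that binding in few cells and weak binding in many cells cannot be told apart.

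The deposited values are peak lists. Replicate 1 has 2803 thresholded peaks and replicate 2 has 4519, and a conservative list that combines both replicates has 4384. Each peak carries a summit position and a signal, the enrichment value that the authors deposited. The scale of the signal differs between lists, so it is given here with its rank or percentile within its own list, where a percentile of 99 means that 99% of peaks lie below. Below, a bound gene is one whose annotated 5′ end has a conservative summit within 500 bp. Positions are in base pairs along the gene's own strand, and negative positions are upstream. Read depth is unknown. Shares carry 95% Wilson intervals for counting error only, and no test was run between gene groups, since 1 group of animals gives none.

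Each ribosome holds one copy of most of these proteins, so their genes are transcribed at high and matched levels, above all in growing tissues and in the germline of an adult hermaphrodite. The proteins coat and brace the ribosomal RNA of the large subunit, where peptide bonds form and from which the new chain leaves through a tunnel. In worms, as in other animals, most of these genes are short, many host small nucleolar RNAs in their introns, and many are trans-spliced to a leader RNA, so that an annotated 5′ end need not be the place where transcription starts.

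The genomic sequence under 6 of the member summits is given first, because the words that recur in these windows are described with the values further on. Each is 101 bases centred on the conservative summit, read 5′ to 3′ on the strand of the gene from the RefSeq copy of WBcel235 (ce11), and none overlaps an annotated exon. Capitals mark the word CGAGTGT, the word ACCGTA, the word GCGAGAC and the word GAGACC, each also as its reverse complement. The first 3 carry CGAGTGT followed after 1 base by ACCGTA, rpl-38 carries ACCGTA without CGAGTGT, and rpl-3 and rpl-35 are the members with the highest signal.
rpl-22, chrII:5055308-5055408, plus strand: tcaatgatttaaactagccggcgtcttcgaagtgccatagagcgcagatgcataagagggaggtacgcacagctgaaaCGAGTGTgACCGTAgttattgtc
rpl-29, chrIV:13881913-13882013, plus strand: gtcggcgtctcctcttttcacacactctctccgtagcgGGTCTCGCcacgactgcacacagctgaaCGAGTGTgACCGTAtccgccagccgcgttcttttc
rpl-21, chrIII:8130505-8130605, minus strand: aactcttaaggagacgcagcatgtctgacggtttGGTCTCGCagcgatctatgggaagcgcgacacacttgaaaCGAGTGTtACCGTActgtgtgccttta
rpl-38, chrV:15511754-15511854, plus strand: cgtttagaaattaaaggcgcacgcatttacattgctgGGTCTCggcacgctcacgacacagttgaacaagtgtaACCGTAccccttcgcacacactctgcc
rpl-3, chrIII:3867521-3867621, plus strand: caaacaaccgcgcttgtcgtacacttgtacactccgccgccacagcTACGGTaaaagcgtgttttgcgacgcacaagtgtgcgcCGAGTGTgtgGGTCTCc
rpl-35, chrIII:7854638-7854738, plus strand: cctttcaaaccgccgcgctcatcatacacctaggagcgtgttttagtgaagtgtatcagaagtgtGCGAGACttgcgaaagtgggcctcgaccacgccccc

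Of the 47 large-subunit genes, 34 were bound (72.3%, interval 58.2 to 83.1), against 12.3% of all protein-coding genes. Replicate 1's own list gave 28 members with a summit within 500 bp (59.6%, against 8.75% of all genes), replicate 2's gave 38 (80.9%, against 12.9%), and 27 were in both (57.4%, against 8.17%). Of the small-subunit genes, named rps-, 27 of 31 were bound (87.1%, interval 71.2 to 94.9). The nuclear genes for the large subunit of the mitochondrial ribosome, named mrpl-, had a lower share, with 13 of 41 (31.7%, interval 19.6 to 47.0). The interval of the mitochondrial group lies below those of both cytosolic groups, while the intervals of the cytosolic groups overlap.

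The member summits lay further upstream than those of bound genes in general. The median position at the 34 bound members was −283.5 bp, with quartiles of −343.75 and −236.5 and a range from −467 to 351, whereas over all 2462 bound protein-coding genes the median was −155 and the quartiles were −268.75 and −29. Between 400 and 200 bp upstream lay 23 of the 34 member summits (67.6%), compared with 30.3% over all bound genes. The same far upstream position was seen at small-subunit genes, with a median of −278, and not at mitochondrial ones, with −170. Each replicate alone gave it as well, at −294 in replicate 1 and −275 in replicate 2. Measured from the start codon the bound members had a median of −295 and all bound genes −201. The annotated leaders of the members are short, with the start codon a median of 6 bp inside the gene and within 30 bp in 42 of the 47.

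**Figure D1:**
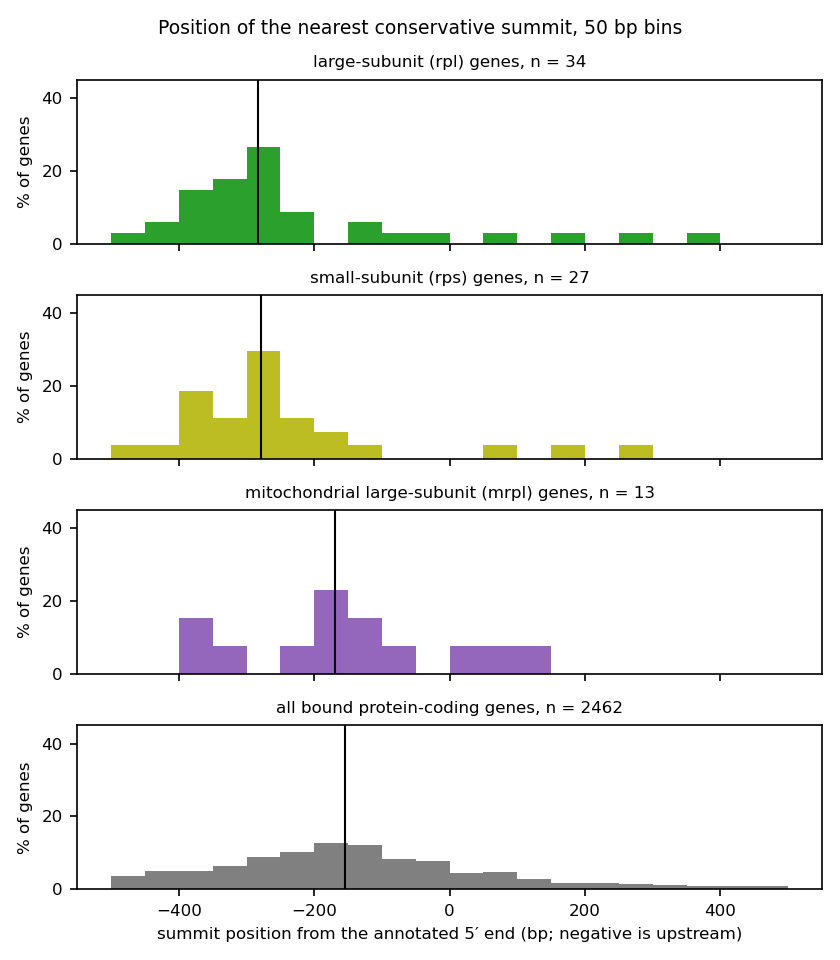
Position of the conservative summit nearest to the annotated 5′ end, in 50 bp bins, as the percentage of bound genes, for rpl, rps, mrpl and all bound protein-coding genes; black lines are medians. The rpl and rps genes peak near −283.5 and −278 bp, upstream of the median of −155 over all bound genes.

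The count of bound members followed the window. Within 250 bp of the 5′ end only 9 members had a summit (19.1%, against 8.14% of all genes), fewer in share than the 24.4% of mitochondrial large-subunit genes, and within 1000 bp 41 did (87.2%, against 15.8%). The members added at 1000 bp were rpl-9, rpl-10, rpl-11.1, rpl-28, rpl-32, rpl-33 and rpl-43. For each of these the nearest summit, at 512 to 975, lay beyond the 3′ end of the gene, so the wider count partly repeats the downstream summits described below. In both replicates' lists the counts were 6 within 250 bp (12.8%, against 4.99%) and 38 within 1000 bp (80.9%, against 10.7%). Counting from the start codon again gave 34 members, against 11.8% of all genes. Under the less strict combined list 38 members were bound, against 13.4%, although rpl-30, bound in the conservative list, had no summit there. With any base of the peak inside the window 35 were bound, also against 13.4%. When a summit was given only to the nearest 5′ end 23 members kept one (48.9%, against 10.2%). The part of the conservative list above its median signal held 27 members (57.4%, against 7.91%). In the ranked list made before thresholding 44 members had a summit (93.6%), but so did 44.5% of all genes and 92.7% of mitochondrial large-subunit genes, and in both replicates' ranked lists 44 did, against 36.8%.

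The members also carried a summit beyond their other end. A conservative summit lay within 300 bp beyond the annotated 3′ end of 38 of the 47 genes (80.9%), where 6.44% of all protein-coding genes had one. This window was chosen after the values were seen, so the counts are a description. Replicate 1's list gave 32 members (68.1%, against 4.06%), replicate 2's list gave 34 (72.3%, against 6.59%), and 28 had one in both (59.6%, against 3.37%). With 150 bp the count was 20 (42.6%, against 3.43%), with 500 bp it was 40 (85.1%, against 7.90%), and in the less strict list it was again 38, against 7.24%. Of the 8024 protein-coding genes from 276 to 1734 bp long, the members' own range, 7.10% had such a summit. Small-subunit genes had it in 30 of 31 cases (96.8%) and mitochondrial large-subunit genes in 5 of 41 (12.2%).

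These downstream summits lay a median of 148.5 bp beyond the 3′ end, close to the 147 bp over all protein-coding genes with one. Between 100 and 200 bp was a summit of 25 of the 38 members (65.8%), compared with 49.1% of all such genes and 53.0% of those in the members' length range. At rpl-4, whose protein lines the exit tunnel, the summit 113 bp beyond the end had a signal of 468, above the 156 of the summit upstream of the gene. The one at rpl-7A, 91 bp beyond the end, reached 402.5 beside 737 upstream. At rpl-43 the summit 237 bp beyond the end had 416.5, at rpl-29 the one at 186 bp had 369, and at rpl-26 the one at 163 bp had 355. Of the 34 bound members 30 had a summit at both ends (88.2%, against 25.3% of all bound genes), and in 10 of these 30 the downstream summit was the higher (33.3%, close to the 26.7% over all genes with both). The 4 bound members without one were rpl-7, rpl-24.1, rpl-38 and rpl-41.1. In 17 members the downstream summit was not within 500 bp of the 5′ end of any other protein-coding gene (36.2%, against 3.28% of all genes), and in the other 21 it could also be assigned to a neighbour. The downstream summits of rpl-6 and rpl-39 were in neither replicate's own list. The signal that the antibody gives at either end of these genes without the tag was not measured here.

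**Figure D2:**
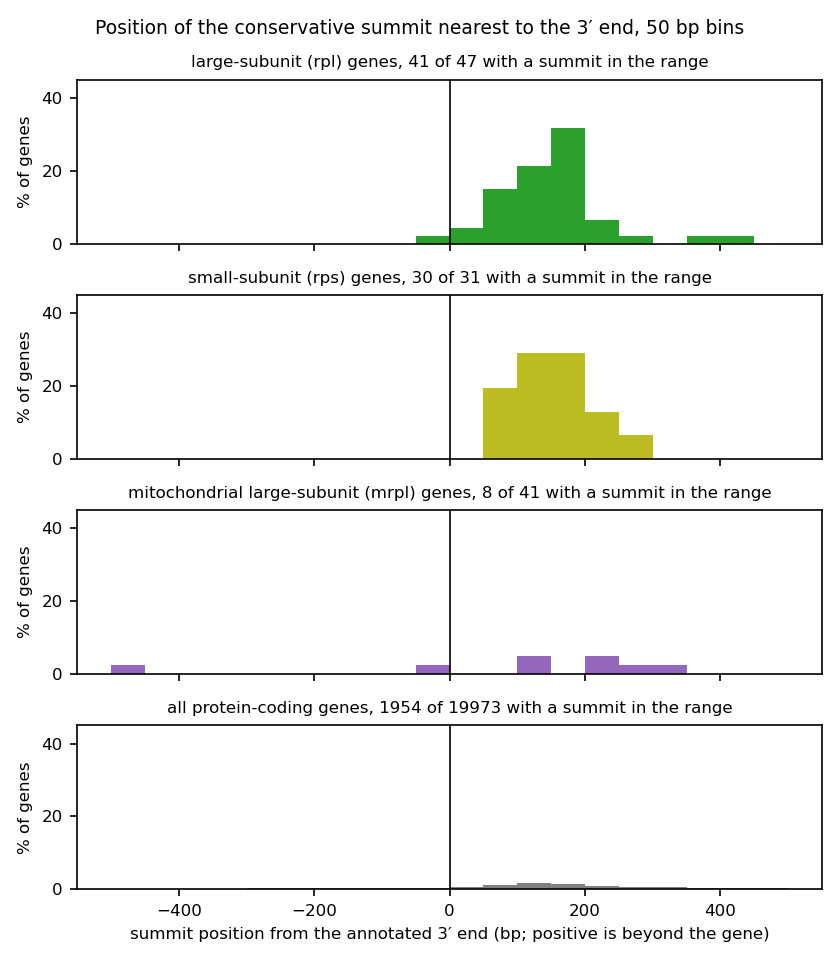
Position of the conservative summit nearest to the annotated 3′ end, in 50 bp bins from 500 bp inside to 500 bp beyond the end, as the percentage of all genes of each group. The rpl and rps genes gather between 50 and 200 bp beyond the end, where 38 of 47 rpl genes have a summit within 300 bp, compared with 6.44% of all protein-coding genes.

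Signal at the 5′ ends was spread over nearly the whole list. The median percentile of the 34 members was 73.3, compared with 62.6 over all bound genes, 68.5 at small-subunit and 62.8 at mitochondrial large-subunit genes. Among the highest 10% of the list were 10 members (29.4%, against 15.2% of all bound genes), and 7 were in its lower part, below the median peak. The weakest, rpl-41.1, had a signal of 76.8. Peaks at the members were 86 to 320 bp wide with a median of 240.5, where the median peak of the list was 320 bp wide. Every member peak with a signal up to that of rpl-2 (162) was 320 bp wide, and every stronger one was narrower. Widths of other peaks of like signal were not compared.

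Among the proteins of the peptidyl transferase region, rpl-3 had the highest signal of all members. Its summit at −283 had a signal of 1975 and rank 33 of 4384. The summit was at −284 in replicate 1 (signal 584, percentile 98.4) and at −282 in replicate 2 (signal 1432, percentile 99.4), 2 bp apart. For rpl-2, whose product binds beside the catalytic centre, the summit at −356 had a signal of 162, with a summit in replicate 2 (−361, signal 132) and none in replicate 1. The gene rpl-10, for the protein that joins last near the centre, was not bound and had no summit within 500 bp in either replicate's list.

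Genes for the tunnel and its exit, where nascent chains leave and chaperones dock, were bound in 8 of 9 cases. The summit of rpl-35 lay at −446 with a signal of 1784 and rank 50, at −450 in replicate 1 (signal 562) and −444 in replicate 2 (signal 1224). Those of rpl-17 at −392 (signal 201), rpl-25.2 at −467 (194), rpl-4 at −292 (156), rpl-31 at −250 (133), rpl-39 at −281 (117) and rpl-26 at −261 (103) were also upstream, and that of rpl-19 at 351 was not. None of these 7 other summits came near the signal of rpl-35. The unbound gene was rpl-25.1.

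In the group of stalk proteins and proteins that hold the 5S ribosomal RNA, rpl-12, which forms the base of the stalk that recruits translation factors, had a summit at −36 with a signal of 791 and rank 242. Replicate 1 placed it at −33 (signal 229) and replicate 2 at −36 (signal 570). The same summit is at −357 from lin-54, which encodes a DNA-binding subunit of the DREAM complex, so it cannot be assigned to 1 of them. Upstream summits were seen at rpl-5, a binder of the 5S RNA (−392, signal 289), and at rpl-1, the mobile stalk protein (−235, signal 232). The pair rpl-11.1 and rpl-11.2, whose products also bind the 5S RNA, was not bound.

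All 5 genes for proteins at the face toward the small subunit were bound. The summit of rpl-41.2 lay at −284 with a signal of 741 and rank 268, at −281 in replicate 1 (signal 237) and −284 in replicate 2 (signal 530). Summits at rpl-24.1 (−241, signal 456) and rpl-23 (−303, signal 291) were present in both replicates. At rpl-30 the summit lay inside the gene at 150 with a signal of 79.9. Replicate 1 had one at 95, and replicate 2 and the less strict list had none. The summit of rpl-41.1 (−114, signal 76.8, score 840) was in neither replicate's own list.

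The remaining 25 genes, with 16 bound, include several of the highest signals. The summit of rpl-20 lay at −290 with a signal of 1700 and rank 54, at −304 in replicate 1 (signal 523) and −286 in replicate 2 (signal 1190). For rpl-15 it lay at −353 with a signal of 1294 and rank 102, at −351 in replicate 1 (signal 405) and −353 in replicate 2 (signal 893). Both are shared with a divergent neighbour. The summit of rpl-7A lay at −81 with a signal of 737 and rank 270, at −86 in replicate 1 (signal 182) and −79 in replicate 2 (signal 572). Its neighbour set-21, named for a SET domain of the histone methyltransferase kind, has the same summit at −173. At rpl-29 it lay at −262 with a signal of 719.5 and rank 282, at −272 in replicate 1 (signal 216) and −262 in replicate 2 (signal 511). All 8 members of highest signal were present in both replicates, and the positions in the replicates differed by 18 bp or less. The rest of the bound members here were rpl-22 (−258, signal 719.5), rpl-21 (−328, 585), rpl-24.2 (−150, 537.5), rpl-38 (−362, 533), rpl-6 (−349, 327), rpl-14 (−316, 274), rpl-27 (96, 249), rpl-36 (−403, 209.5), rpl-36.A (−328, 208), rpl-7 (−317, 159), rpl-13 (−262, 126) and rpl-18 (288, 100).

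**Figure D3:**
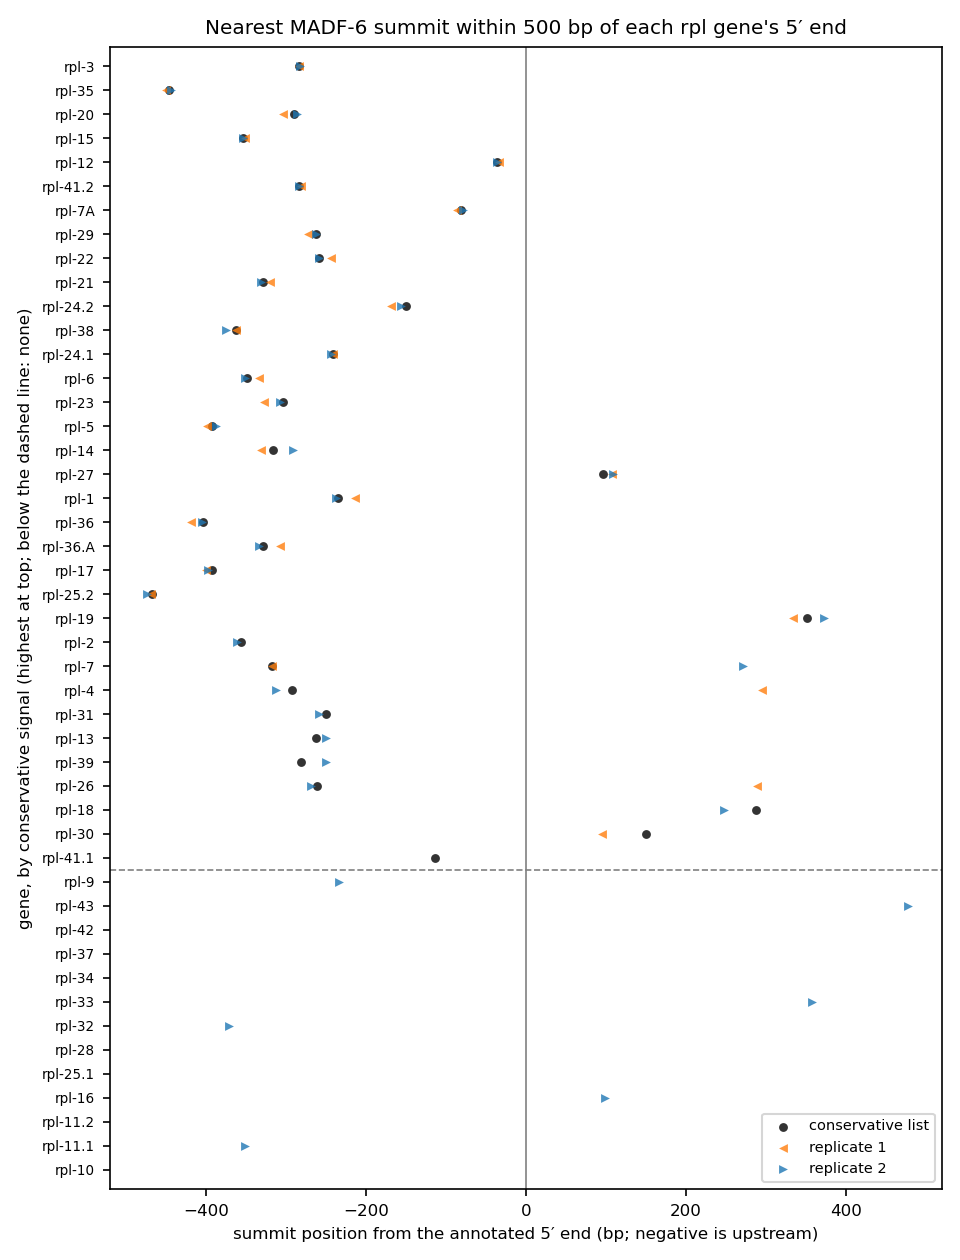
Position of the summit nearest to the 5′ end (bp, negative upstream) for each of the 47 genes in the conservative list and in each replicate's own list, ordered by conservative signal. Most points of the 34 bound genes fall between 400 and 200 bp upstream, and the 13 unbound genes below the dashed line have only 6 points, all from replicate 2.

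At 4 members the nearest summit lay inside the gene. For rpl-18 (288) and rpl-27 (96) it fell in a coding exon, for rpl-30 (150) in an untranslated exon and for rpl-19 (351) in an intron. The start codon of rpl-19 lies further in than that summit, which is at −291 from it, close to where other members had theirs. In replicate 1 the rpl-19 summit was at 334 and in replicate 2 at 373, and rpl-27 had 108 and 109. For rpl-18, only replicate 2 had a summit, at 248. Another 4 members had a summit on each side of the 5′ end within 500 bp. They were rpl-7 (−317 with a signal of 159 and 317 with 112), rpl-14 (−316 with 274 and 445 with 72.2), rpl-26 (−261 with 103 and 299 with 84.5) and rpl-41.2 (−284 with 741 and 456 with 317). The second summit of rpl-41.2 is past the end of the gene and is the one counted at its 3′ end above. In each of the 4 the upstream summit had the higher signal. Of the 34 nearest summits 29 lay outside protein-coding genes, and other kinds of gene were not looked at. The upstream summit of rpl-24.2, at −150, fell in an intron of C03D6.1.

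Over the 27 members present in both lists the positions differed by a median of 13 bp, and 24 were within 50 bp, while over all genes present in both the median was 11 bp. The 3 exceptions were rpl-4, rpl-7 and rpl-26, where the summit nearest to the 5′ end was upstream in 1 replicate and inside the gene in the other, up to 607 bp apart. Each of the 3 also had a matching summit in both lists, and taking the closest pair of summits all 27 members were within 40 bp. The rank order of the 27 members was alike in both lists, with a Spearman rho of 0.944, beside 0.869 over all 1631 genes. This is a description over genes, and both lists share an input file beside their own alignments. A summit in replicate 1 only was seen at rpl-30. In replicate 2 only, the longer list, were rpl-2, rpl-9, rpl-11.1, rpl-13, rpl-16, rpl-18, rpl-31, rpl-32, rpl-33, rpl-39 and rpl-43. Of these 11, 5 were bound in the conservative list (rpl-2, rpl-13, rpl-18, rpl-31 and rpl-39), with signals from 100 to 162.

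**Figure D4:**
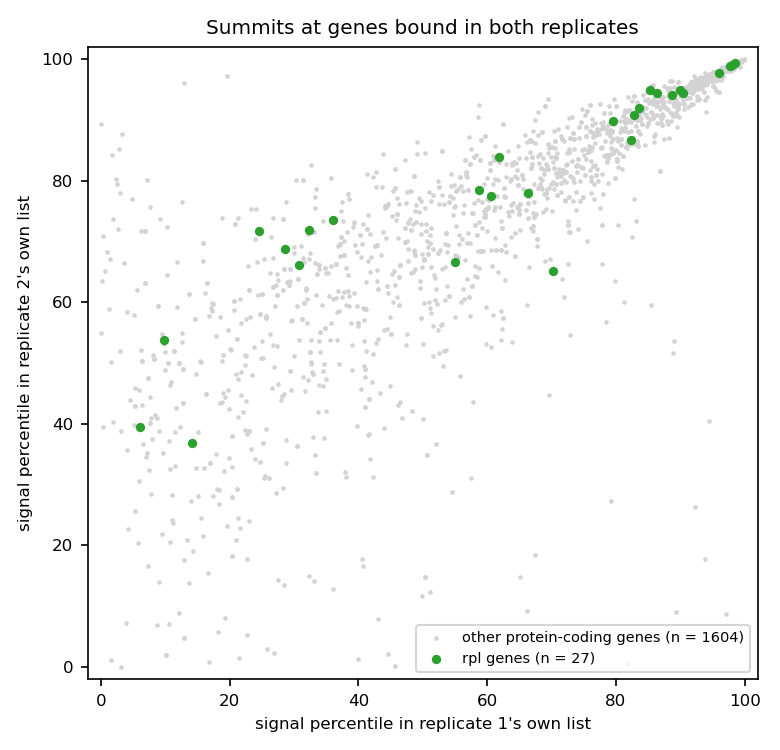
Signal percentile of the summit nearest to the 5′ end in replicate 1's own list (x axis) and replicate 2's own list (y axis) for the 1631 genes with a summit in both, rpl genes in green (27) and others in grey. The rpl genes follow the rising cloud, and those above a percentile of 80 in replicate 1 are also above 80 in replicate 2.

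The 13 unbound members were rpl-9, rpl-10, rpl-11.1, rpl-11.2, rpl-16, rpl-25.1, rpl-28, rpl-32, rpl-33, rpl-34, rpl-37, rpl-42 and rpl-43, and they fell into groups. In the less strict list 5 had a summit, at −248 for rpl-9 (signal 75.2), −342 for rpl-11.1 (68.2), 87 for rpl-16 (137), −390 for rpl-32 (172) and 336 for rpl-33 (87.0). In replicate 2's list these 5 and rpl-43 had one, at −234, −351, 99, −371, 357 and 478 in that order. Of rpl-32, the signal of 145 there stood at percentile 66.6, well within the range of bound members, and at rpl-43 the signal of 254 stood at 83.2, though that summit lies beyond the 3′ end of this short gene. The genes rpl-10, rpl-11.2, rpl-28 and rpl-34 had a summit in the combined ranked list and in no thresholded list, and rpl-25.1, rpl-37 and rpl-42 had none there. Replicate 1's own ranked list had unthresholded calls at rpl-25.1 (65, signal 21.9, percentile 83.2) and rpl-37, and none at rpl-42.

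For 8 of the 13 the nearest conservative summit was the one just beyond the 3′ end. It lay at 512 from the 5′ end of rpl-43 (signal 416.5), at 694 for rpl-32 (316), 704 for rpl-28 (137), 841 for rpl-11.1 (349), 876 for rpl-9 (148), 888 for rpl-10 (155), 975 for rpl-33 (193) and 1045 for rpl-16 (123). Counting either end, 42 of the 47 members had a summit (89.4%, against 15.7% of all genes). The 5 without were rpl-11.2, rpl-25.1, rpl-34, rpl-37 and rpl-42. Their nearest summits were at 15418, −108677, 12214, 5756 and 1910.

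Between divergent genes a summit can lie within 500 bp of both 5′ ends. Of the 34 bound members 18 shared their summit with another protein-coding gene (52.9%, against 36.9% of all bound genes). The partner was a small-subunit gene 3 times, namely rps-10 with rpl-24.1, rps-14 with rpl-36 and rps-30 with rpl-39. In these pairs the summit lay at −241 from rpl-24.1 and −369 from rps-10, at −403 from rpl-36 and −260 from rps-14, and at −281 from rpl-39 and −218 from rps-30. Other partners included ify-1, which encodes securin (rpl-22), nuo-1, a subunit of the respiratory chain's NADH dehydrogenase (rpl-36.A), cpf-1, a cleavage factor for messenger RNA ends (rpl-26), and col-38, a cuticle collagen (rpl-5). With a divergent upstream neighbour 22 of 31 members were bound (71.0%), and with an upstream gene on the same strand 12 of 16 were (75.0%), close shares. Their median positions were −291 and −272.5. The neighbour here is the nearest upstream protein-coding gene at any distance, so not every divergent pair shares a promoter region. It is 11497 bp away at rpl-35, and at rpl-37 it overlaps the gene. Shares by kind of neighbour were not counted over all genes.

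The pairs of related members differed in how alike their 5′ ends were. Proteins rpl-11.1 and rpl-11.2 were 91.3% identical and neither gene was bound, though rpl-11.1, on chromosome V, had a summit in replicate 2 and one beyond its 3′ end, and rpl-11.2, on chromosome X, had neither. Proteins rpl-25.1 and rpl-25.2 were 70.5% identical. The gene rpl-25.2 was bound (signal 194), and rpl-25.1 on chromosome X had a summit only in replicate 1's own ranked list. The neighbours rpl-41.1 and rpl-41.2, whose 5′ ends are 1102 bp apart on the same strand, encode identical proteins of 22 residues. Their signals were 76.8 and 741, at percentiles 10.2 and 93.9, the widest gap of the 4 pairs with both genes bound. For rpl-24.1 and rpl-24.2, 27.7% identical, the signals of 456 and 537.5 were close. Although the names of rpl-7 and rpl-7A resemble each other, their proteins were 22.5% identical, and signals were 159 and 737. Likewise rpl-36 and rpl-36.A are different proteins (6.73% identical) with signals of 209.5 and 208. Reads from near-identical copies can be misplaced, and how such reads were handled is not given in the sources used here.

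By chromosome, all 15 members on I were bound (interval 79.6 to 100), and 19 of the 32 elsewhere were (59.4%). On I 19.4% of all protein-coding genes were bound, and elsewhere 1905 of 17095 were. On III, where 20.8% of all genes were bound, 6 of 9 members were. Counts were 4 of 9 on II, 6 of 7 on IV, 3 of 5 on V and 0 of 2 on X, where 1.87% of all genes were bound. The interval of chromosome I does not overlap those of II (18.9 to 73.3) and X (0 to 65.8), and it overlaps the wide intervals of III, IV and V. In replicate 1's own list 12 of the 15 members on I had a summit and in replicate 2's 13 did, compared with 16 and 25 of the 32 elsewhere, and the shares were closer in replicate 2 than in replicate 1. In the less strict list 14 of the 15 on I had one, and 24 of the 32 elsewhere.

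**Figure D5:**
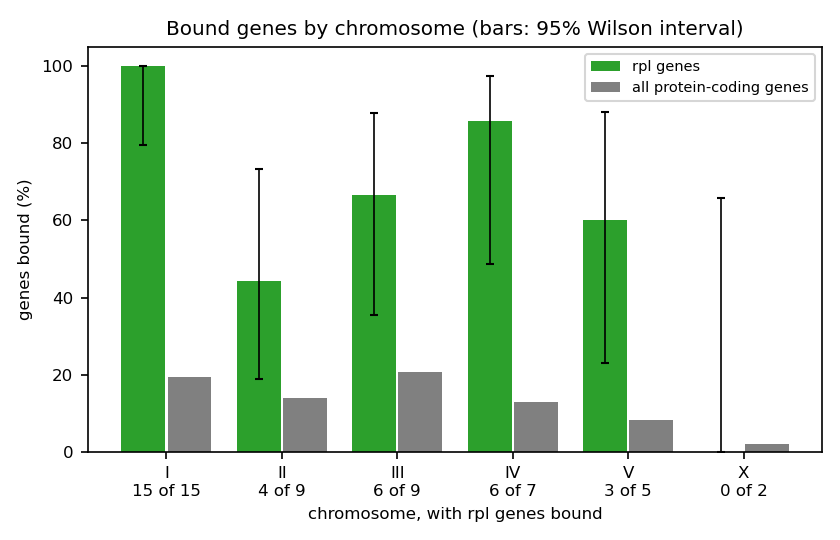
Percentage of rpl genes (green, with 95% Wilson intervals) and of all protein-coding genes (grey) bound on each chromosome; labels give rpl genes bound of those present. All 15 rpl genes on I and 0 of 2 on X are bound, where 19.4% and 1.87% of all genes are.

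Members that host small nucleolar RNA genes, which guide the modification of ribosomal RNA, were rpl-2, rpl-4, rpl-6, rpl-7, rpl-7A, rpl-15, rpl-24.1 and rpl-26. All 8 hosts, with 12 such RNA genes, were bound, and 26 of the 39 other members were (66.7%). The hosts are few, and the share bound among all protein-coding hosts of such RNAs was not counted. Positions were alike, at medians of −304.5 and −282. The median percentile was 66.8 in hosts and 73.3 in the rest.

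Of 23 annotated other genes of the ribosome, its assembly and its regulation, 11 were bound, where 12.3% of all protein-coding genes were. The acidic stalk genes gave rla-1 (158, signal 362) and rla-2 (231, signal 91.4) as bound and rla-0 as not. Both genes that encode ubiquitin fused to a ribosomal protein were bound, ubq-2 (−484, signal 562) and ubl-1 (−205, signal 235). So was rack-1, for a scaffold on the small subunit (−226, signal 153). Among nucleolar and assembly genes, fib-1, the fibrillarin that methylates ribosomal RNA (−68, signal 340), pro-1 (−127, signal 284), nst-1, dao-5, lpd-6 and nog-1 were bound. Genes eif-6, ncl-1, pro-2, pro-3, lpd-7, grwd-1, rbd-1, nucl-1 and toe-1, and the growth regulators let-363 (the kinase TOR) and raga-1, were not. Of the bound genes, nog-1 had no summit in either replicate's own list, and rla-2, nst-1 and lpd-6 had one in replicate 2 only. Of those not bound, rla-0, eif-6, lpd-7, rbd-1, nucl-1 and toe-1 had a summit in replicate 2's own list. The genes looked up also took in rpa-1 and rpa-2 by name, which in this species encode replication protein A and were not bound.

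The member windows shared base composition and words. Median GC content of the 101-base windows at the 34 members was 50.5%, compared with 44.6% over all 2172 promoter summits and 33.7% in equal windows placed at the members' median position of all protein-coding genes. At the 13 unbound members, windows at that same fixed position had 30.7%. The bound members were not measured at the fixed position, so their summit windows and the windows of unbound members are not alike. At small-subunit summits not shared with a member the median GC content was 52.5%. Of 8 words taken from textbook knowledge of promoters and searched on both strands, none was common. TATAAA, the TATA box, and TTTTTTT were in 0 of 34 windows, against 4.51% and 12.2% of all promoter summits. The word TTTGAAA was in 3 windows (8.82%, against 10.4% of all promoter summits). In 2 windows each (5.88%) were CTGCGTC (against 5.62%), the GC box GGGCGG (against 5.76%) and the splice acceptor word TTTTCAG (against 5.94%). In 1 window each (2.94%) were the repeat GAGAGAG (against 3.82%) and the E2F-like word TTCCCGC (against 5.66%).

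The words marked in the printed windows were picked after those windows were seen, so their counts describe the members and test nothing. CGAGTGT was in 11 of 34 member windows (32.4%), in 3 of 25 small-subunit windows, in 0 of 13 mitochondrial ones and in 1.84% of all promoter summits. In windows at the members' median position it was in 0.556% of all promoters. In 9 of the 11 it read along the gene strand. ACCGTA was in 14 of 34 member windows and 8 of 25 small-subunit ones, against 15.3% of all promoter summits and 2.95% of all promoters. GCGAGAC was also in 14 of 34, and in 6 of 25 small-subunit windows, against 8.98% and 0.981%, and GAGACC, which overlaps GCGAGAC where the letters run on, in 18 (52.9%) and in 9 of 25 (36.0%), against 17.3% and 2.99%. The small-subunit windows thus held each of the 4 words more often than all promoter summits did, as the member windows did.

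The pairing seen at rpl-22, rpl-29 and rpl-21, CGAGTGT followed after 1 base by ACCGTA, is rare. On both strands it has 30 matches in the nuclear chromosomes, of which 22 (73.3%) lie within 50 bp of a conservative summit, a zone that covers 0.442% of those chromosomes. It was in the summit windows of 7 members, rpl-1, rpl-6, rpl-19, rpl-21, rpl-22, rpl-24.1 and rpl-29. Within 500 bp of the 5′ end it was at 9 of 47 large-subunit genes (19.1%) and 5 of 31 small-subunit genes (16.1%), compared with 0.22% of all protein-coding genes. The match between rpl-24.1 (−243) and rps-10 (−367) is counted in both groups. Of the 44 genes with a match there, 34 were bound (77.3%). These 44 genes have 28 matches among them, so neighbouring genes can be counted on the same match. The unbound members rpl-11.2 and rpl-34 hold the pairing too, at −349 and −421, so a match was not always accompanied by a thresholded summit. Unthresholded calls lay near each of them in some ranked lists and not in others. For rpl-11.2 the combined ranked list had one at −393 (signal 44.8, percentile 77.3), as did replicate 2's, while replicate 1's had only one at 128. For rpl-34 replicate 1's ranked list had one at −413 (signal 40.2, percentile 94.9). The combined list and replicate 2's had calls at rpl-34 only at 125 and 124. Such calls are common, since 44.5% of all genes had one within 500 bp in the combined ranked list. The pairing was also chosen after the windows were seen, so its counts test nothing.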

How the data were processed

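ChIP-seq of tagged MADF-6 was deposited as peak lists on ce11, which is WBcel235, for 2 biological replicates of 1 group. Per the labels, chromatin was sonicated and precipitated with an anti-GFP antibody. Both replicates' lists share 1 input file beside their own alignments, per the README files deposited with them, and the labels name the same control experiment for both. Aligner, peak caller, thresholds and the handling of reads that map to several places: not given in the sources. Signal is the authors' deposited enrichment value, and score is the authors' scaled irreproducible discovery rate, at most 1000 and at least 830 in the thresholded lists. Of the deposited lists 7 were used. Depth is unknown, since no file holds read counts.

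Coordinates are 1-based. Summits were assigned to 5′ ends of Ensembl release 115 genes with Python 3.11.15, numpy 2.4.6, scipy 1.17.1 and statsmodels 0.14.6 (Wilson intervals). Proteins were translated from the annotated coding sequence of WBcel235 and aligned with biopython 1.88. Assignment was checked on simulated summits. A summit counted for every 5′ end within 500 bp. Full values are given for the 8 members of highest signal, unbound members, related pairs, members in 1 replicate only and members with a summit inside the gene. The rule for the members uses names only, but this gene group, the comparison groups and the lists were chosen with earlier results of these data known. The 3′ window and the words marked in capitals were chosen after the values were seen. Alternatives were other windows, lists and replicates.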

Additional observations from a re-analysis of the deposited data

How the results depend on the processing

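The count of bound members was 34 and stayed between 23 and 44 under 9 of the 10 alternatives run for it, the exception being the 250 bp window, with 9 members. For members present in both replicates, the 27 became 6 with 250 bp and 44 in the ranked lists. The median position of −283.5 bp became −114 with 250 bp, which by construction leaves out the summits further upstream, −262 with 1000 bp and −303 in the part of the list above its median signal, and ran from −294 to −275 when 1 replicate was left out. The median percentile of 73.3 was 68.3 without replicate 2 and 72.7 without replicate 1. The 18 shared summits became 2 with 250 bp and 29 with 1000 bp, again following the width of the window. The 38 members with a summit beyond the 3′ end became 20 with 150 bp and 32 to 34 without a replicate. Every alternative for this count was added after seeing the data, and all of them are among the 35 counted next. Of 35 alternatives 25 stayed within 1.5 times the first value for counts, or within the SD between replicates for medians, and no median changed sign. With 250 bp the order against mitochondrial large-subunit genes turned, with 19.1% of members and 24.4% of mitochondrial genes bound, and 12.8% and 17.1% in both replicates. The members added with 1000 bp had their nearest summit beyond the 3′ end, at 512 to 975 from the 5′ end. Causes of the moves other than the window were not tested. No paired analysis was possible because there is 1 group. Read depth, which would limit weak summits, is unknown.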
